A study of Homo sapiens with 15 samples.

Results

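The 10 genes described here encode parts of the circadian clock: PER2, PER3, CRY1, CRY2, NR1D2, BMAL1, CLOCK, DBP, TEF and BHLHE40. They were taken as every probe set that the platform annotation pairs with 1 of these symbols alone, which gave 24 of 54675 probe sets. Of the 24, 18 passed the filter on low signals, and each of the 10 genes kept at least 1 tested probe set among 16358 genes tested in all. Each gene is represented by its tested probe set with the highest mean signal (none of these ends in _x_at), and values of its other probe sets follow beside many of its results.

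The RNA came from A549, 1 established line of human lung adenocarcinoma epithelial cells, grown in F12K medium with serum stripped by charcoal, and was read on 15 Affymetrix arrays in 5 groups of 3. One group was not treated. The other 4 all received dexamethasone, a synthetic glucocorticoid, for 6 hours: alone, or with 48 hours of mifepristone, of a match polyamide or of a mismatch polyamide. Mifepristone is an antagonist of the glucocorticoid receptor, and pyrrole-imidazole polyamides are synthetic ligands of the DNA minor groove. The labels name the polyamides only as match and mismatch, and the sources used here give neither their structures and target sequences nor any dose. No group received mifepristone or a polyamide without dexamethasone. The labels do not say whether the arrays of a group came from separate cultures, so the p-values rest on a spread between arrays that could be technical. Signals are quantile-normalized MAS5 intensities, changes are differences of log2(signal + 16), and a change is called where the Benjamini-Hochberg adjusted p of limma, over 39744 tested probe sets, is under 0.05.

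In the clock of mammalian cells, the transcription factors BMAL1 and CLOCK bind E-box sequences as a dimer and switch on the PER and CRY genes, whose proteins return to the nucleus and repress that dimer. In an interlocking loop, the nuclear receptors REV-ERB, of which NR1D2 encodes the beta form, repress BMAL1, while ROR receptors raise it. BHLHE40 encodes a repressor that competes for E-boxes, and DBP and TEF encode basic-leucine-zipper factors that carry the rhythm to D-box genes. Glucocorticoids are known to reset the clock of peripheral tissues, lung included, with PER genes among the direct targets of the receptor.

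Short sequences around the clock motifs are shown first because several members share them near their starts. RefSeq promoter windows on GRCh38.p14, from 250 bases before to 50 bases after a transcript start, were found for 10 of 10 members (16 windows, since 6 genes have 2). Motifs were searched on both strands by their exact letters. The E-box variant CACGTT lay in windows of PER2, CRY1, CRY2 and CLOCK, 4 members, against 6.44% of 27305 genes and 5.34% of their 35116 windows. Shares of genes here and below count a gene if any of its windows matched, so genes with 2 windows had more sequence to match in. The stretches below run 5′ to 3′ on the gene's strand, with the motif in capitals, which reads AACGTG where it lies on the other strand.
PER2, chr2:238288790-238288819, minus strand: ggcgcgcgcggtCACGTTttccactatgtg
CRY1, chr12:107093621-107093650, minus strand: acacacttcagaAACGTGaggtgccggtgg
CRY2, chr11:45847275-45847304, plus strand: acacatggtaggAACGTGagggggcgggcc
CLOCK, chr4:55546102-55546131, minus strand: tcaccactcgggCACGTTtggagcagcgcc

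The palindromic E-box CACGTG lay in windows of NR1D2, TEF and BHLHE40, 3 members, against 8.77% of genes. NR1D2 had a pair of them, 155 and 105 bases before a start, and also a D-box, TTATGTAA, which reads TTACATAA on the gene's strand. PER3 had the D-box as well, so that 2 members held it against 1.13% of genes.
NR1D2, chr3:23945954-23945983, plus strand: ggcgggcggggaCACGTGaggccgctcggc
NR1D2, chr3:23946004-23946033, plus strand: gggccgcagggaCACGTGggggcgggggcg
NR1D2, chr3:23945916-23945945, plus strand: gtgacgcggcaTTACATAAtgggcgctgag
PER3, chr1:7784103-7784132, plus strand: gagcccgcgcgTTATGTAAcgcgccccggg

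The core AGGTCA, to which REV-ERB and ROR receptors bind, lay in windows of CRY2 and BMAL1, 2 members, against 16.5% of genes. The core AGAACA of a glucocorticoid response element lay in the window of BHLHE40 alone, against 17.5% of genes, and the full element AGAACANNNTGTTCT in none of the members and in 0.00366% of genes. No member held the other D-box spelling, TTATGCAA, or the cyclic AMP element TGACGTCA, which lay in 1.06% and 2.25% of genes. These are matches of letters within 300 bases and nothing more. Windows of the members ran from 44.8% to 81.6% G and C in the bases before the start (median 70.6%), against 57.2% over all windows.
BMAL1, chr11:13277809-13277838, plus strand: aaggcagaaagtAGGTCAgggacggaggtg
BHLHE40, chr3:4979272-4979301, plus strand: gagtcacagggtAGAACAcgtagctccaac

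The 250 bases before the start of BHLHE40 are shown whole because both a palindromic E-box and the AGAACA core lie in them and because BHLHE40 had the smallest adjusted p among the members between the polyamides.
BHLHE40, chr3:4979187-4979436, plus strand: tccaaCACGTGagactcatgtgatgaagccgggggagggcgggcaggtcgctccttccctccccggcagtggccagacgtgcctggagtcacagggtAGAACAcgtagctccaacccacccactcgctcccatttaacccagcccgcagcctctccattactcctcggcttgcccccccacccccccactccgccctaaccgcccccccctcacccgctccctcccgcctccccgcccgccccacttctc

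Array medians ran from 14.8 to 24.5 and trimmed means from 87.2 to 147 as deposited, so the arrays had not been scaled alike. Before quantile normalization, arrays of a group correlated at 0.978 to 0.985 and arrays of different groups at 0.950 to 0.983. No pair of arrays held identical values. All 6 epithelial markers were tested, with group means of 8443 to 9531 for KRT18, a keratin of simple epithelia, of 167 to 606 for EPCAM and of 124 to 382 for CDH1, both surface proteins of epithelia. Their summed signal was 17468 to 19986 on the match polyamide arrays and 19805 to 24203 on the others, and its part in the results below was not tested. Of the leukocyte markers PTPRC, CD3E, CD14 and LYZ, 2 of 4 passed the filter, and their summed signal stayed between 30.3 and 66.8. The summed signal of 6 fibroblast markers was 266 to 321 on the match polyamide arrays and 134 to 248 on the others, most of it COL1A1, and the part of this difference in the results below was not tested. FKBP5, a standard target of the glucocorticoid receptor, had mean signals of 231 without treatment, 2733 with dexamethasone, 584 with mifepristone added, 554 with the match and 1519 with the mismatch polyamide. The dexamethasone arrays serve in 4 of the 8 comparisons below and the non-treated arrays in 4, so those comparisons are not independent of each other.

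Dexamethasone alone raised PER2 and NR1D2 and lowered BMAL1 and BHLHE40. These 4 of 10 clock genes, 2 in each direction, stood against 6.79% of all tested genes changed, 3.19% higher and 3.60% lower. The members' median change was -0.08, beside -0.04 over all genes. No treatment was followed over a series of times. Whether these and the later changes of clock genes were of level or of timing within the clock's cycle was therefore not tested.

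**Figure D1:**
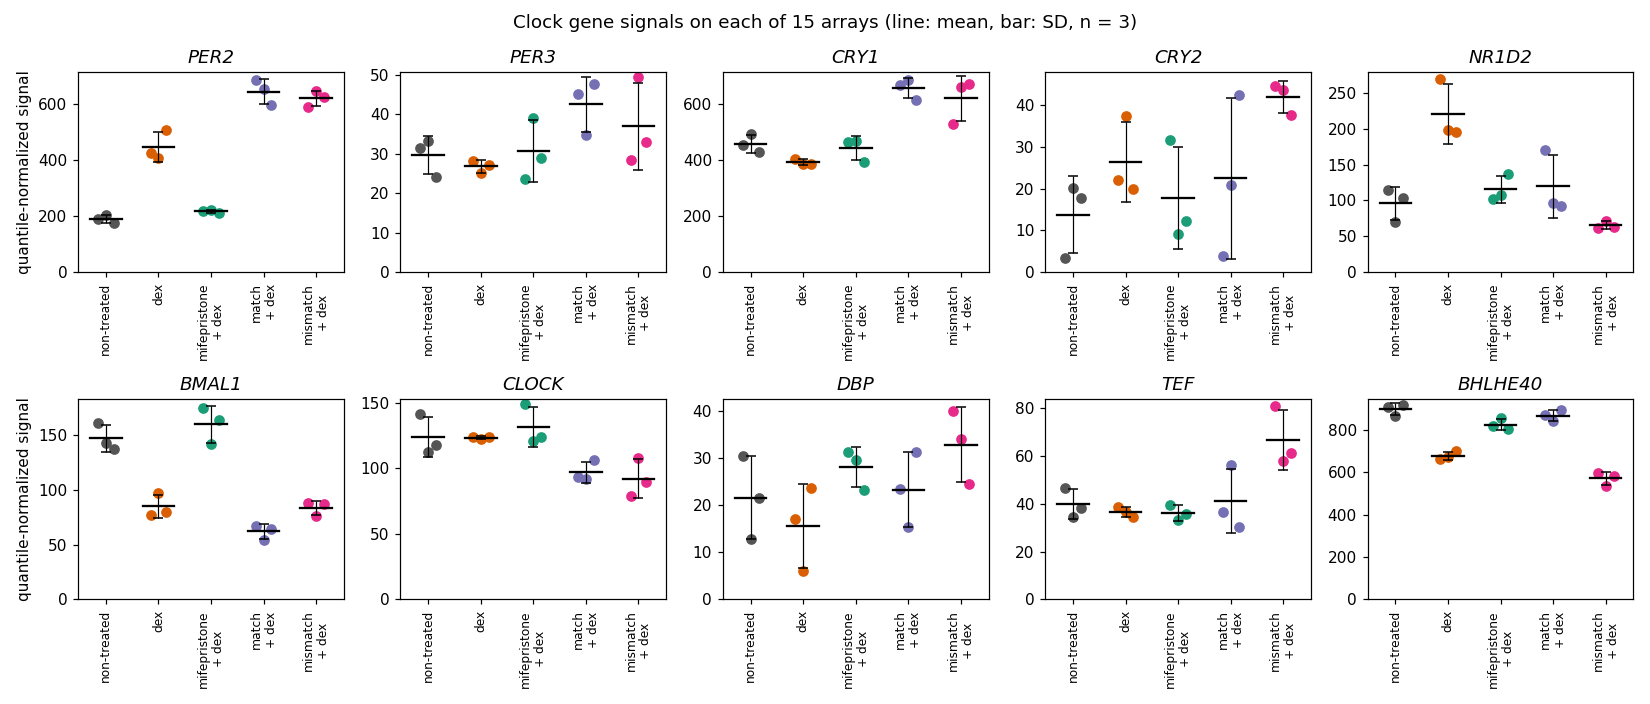
Quantile-normalized signal (vertical axis, linear, from 0) of the 10 clock genes on each of 15 arrays, by group, with a line for the mean and a bar for the SD of 3 arrays. PER2 sits between 176 and 224 on the non-treated and mifepristone arrays and between 410 and 686 on all others, and BMAL1 shows the opposite split.

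PER2, a repressor of the BMAL1 and CLOCK dimer, had signals of 189, 205 and 176 on the non-treated arrays and of 427, 410 and 510 after dexamethasone. The mifepristone arrays read 219, 224 and 213, the match polyamide arrays 686, 655 and 598, and the mismatch polyamide arrays 592, 647 and 627. The groups thus formed 3 tiers that did not overlap: non-treated and mifepristone at the bottom, dexamethasone alone in the middle, and both polyamides on top. Within the bottom tier the mifepristone arrays all lay above the non-treated ones, a difference that was not called. Dexamethasone raised PER2 by 1.17 log2 units (SE 0.09; limma adjusted p = 1.3e-08), a 2.25-fold rise. With bulk RNA, fewer cells with a transcript and less of it per cell cannot be told apart.

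In the same comparison NR1D2, the REV-ERB gene of the loop onto BMAL1, went from 115, 70.6 and 103 to 269, 199 and 195. Every dexamethasone array lay above every non-treated array, and the rise was 1.09 log2 units (SE 0.19; limma adjusted p = 7.7e-04). The other NR1D2 probe set, 209750_at, also read higher on all 3 dexamethasone arrays, by 0.98, with a limma adjusted p of 0.0502.

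BMAL1 moved the other way, from 161, 143 and 138 on the non-treated arrays to 77.5, 97.4 and 80.4 after dexamethasone. It fell by 0.69 (SE 0.12; limma adjusted p = 8.8e-04) with no overlap between the groups, but without quantile normalization the limma adjusted p was 0.0572. Its other probe set, 210971_s_at, read lower on all 3 arrays too, at -0.43, without passing (limma adjusted p = 0.240).

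BHLHE40, the repressor that competes for E-boxes, read 908, 864 and 918 without treatment and 661, 674 and 699 after dexamethasone. The groups did not overlap, and the fall was 0.40 (SE 0.06; limma adjusted p = 2.8e-04). That call depended on the scaling: adjusted p was 0.391 on the signals as deposited, where the change was -0.39, and 0.231 with spike-in scaling. Its other probe set, 201169_s_at, was at -0.14 (limma adjusted p = 0.778).

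The remaining 6 members were not called after dexamethasone. CRY1, a repressor that works in complex with PER proteins, came nearest, with 453, 492 and 430 before and 405, 388 and 387 after. Its dexamethasone arrays were all lower, by 0.21 with a 95% interval of -0.40 to -0.02, but the limma adjusted p was 0.281. CLOCK, the partner of BMAL1, had a change of 0.00 with an interval of -0.26 to 0.26. For CRY2 the interval was much wider, -0.14 to 1.21, because its signals were low and scattered.

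**Figure D2:**
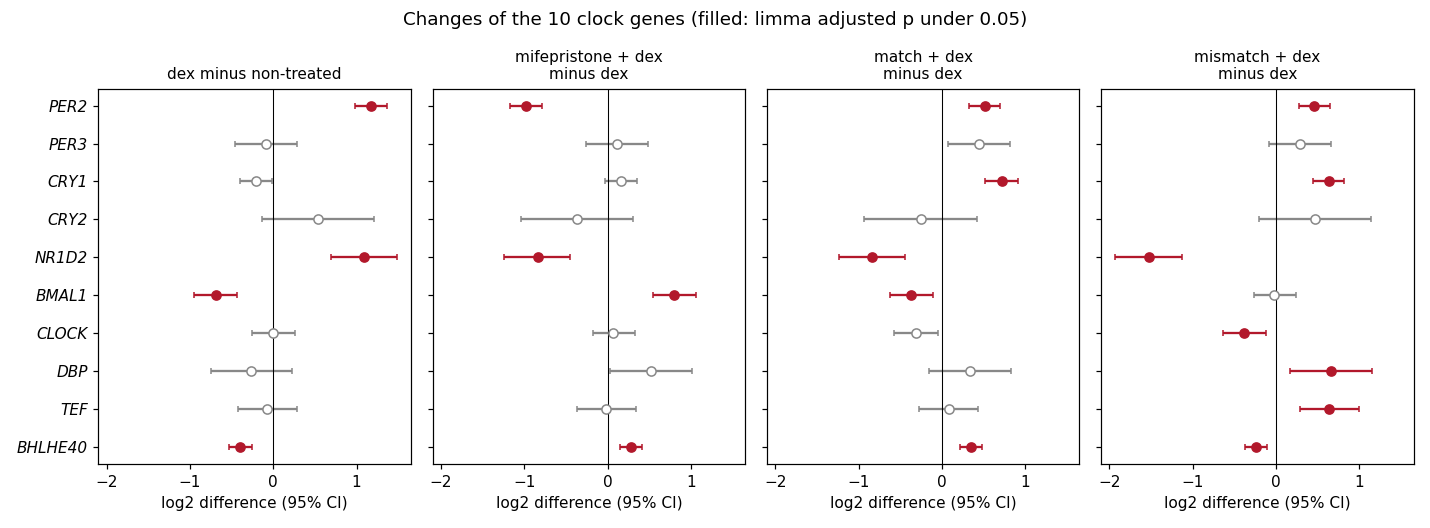
Log2 differences (horizontal axis, points, with 95% intervals as bars) of the 10 clock genes in 4 comparisons, filled where the limma adjusted p is under 0.05. PER2 stands at 1.17 for dexamethasone and at -0.98 for mifepristone, while NR1D2 is positive for dexamethasone and negative in the other 3 panels.

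Mifepristone, added to dexamethasone, lowered PER2 and NR1D2 and raised BMAL1 and BHLHE40, 4 of 10 members against 5.29% of all genes changed. In this comparison 2.53% of genes were higher and 2.76% lower. The members' median change was 0.09, beside 0.02 over all genes.

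PER2 dropped by 0.98 log2 units (SE 0.09; limma adjusted p = 2.8e-07), from a mean of 449 (SD 53.5, n = 3) to 219 (SD 5.62, n = 3). BMAL1 read 175, 142 and 164 with mifepristone, all above the dexamethasone arrays, a rise of 0.80 (SE 0.12; limma adjusted p = 2.6e-04). Its other probe set read higher on all 3 arrays, at 0.58, with an adjusted p of 0.0882. The calls of PER2 and BMAL1 in this comparison held in all 26 other settings.

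NR1D2 read 102, 108 and 137 with mifepristone, below all the dexamethasone arrays, a change of -0.84 (SE 0.19; limma adjusted p = 0.0115). The call was lost in 7 of 26 other settings, with adjusted p up to 0.230, among them without dexamethasone replicate 1 (0.0860), without mifepristone replicate 1 (0.0733) and without mifepristone replicate 2 (0.0557). The other NR1D2 probe set, 209750_at, was at -0.62 without passing (limma adjusted p = 0.354), and its groups overlapped. BHLHE40 read 816, 855 and 804, a rise of 0.28 (SE 0.06; limma adjusted p = 0.0122), lost without dexamethasone replicate 1 (0.0589), without mifepristone replicate 2 (0.0749) and without a variance trend (0.102). Probe set 201169_s_at of BHLHE40 was at 0.33, also with overlapping groups (limma adjusted p = 0.412). On the signals as deposited the median of all genes was itself 0.38 higher with mifepristone, and with spike-in scaling 0.44 higher. Less that shift, PER2 stood at -0.90 and -0.89 and BMAL1 at 0.85 and 0.84 under those scalings.

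Set against non-treated cells, the mifepristone group had 0 of 10 members called by limma, with 1 of 10 at an unadjusted p under 0.05, beside 0.245% of all genes called. That 1 was PER2, higher on all 3 arrays by 0.19 with an interval of 0.01 to 0.38 (adjusted p = 0.740). The interval for BMAL1 ran from -0.15 to 0.36 and that for NR1D2 from -0.15 to 0.64, so residual changes within those ranges were not excluded. On the signals as deposited, where the median of all genes was 0.37 higher, 3 members were called.

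The match polyamide, added to dexamethasone, raised PER2, CRY1 and BHLHE40 and lowered NR1D2 and BMAL1. These 5 of 10 members stood against 38.9% of all genes changed, 21.5% higher and 17.4% lower, so that the share of clock genes was near the background. The median change of the members was 0.21, beside 0.05 over all genes. The mismatch polyamide changed 7 of 10 members, 4 higher (PER2, CRY1, DBP and TEF) and 3 lower (NR1D2, CLOCK and BHLHE40), against 29.6% of genes changed, 17.9% higher and 11.8% lower. Here the median of the members was 0.38, beside 0.07 over all genes. Without mismatch replicate 1 the count fell to 4. Against non-treated cells, 3 members were called with the match polyamide (PER2, CRY1 and BMAL1), beside 37.5% of all genes. With the mismatch 7 were called (PER2, CRY1, CRY2, TEF, BMAL1, CLOCK and BHLHE40), beside 27.7%, and 4 without mismatch replicate 1.

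PER2 rose beyond its dexamethasone level with either polyamide. It was 0.52 above dexamethasone alone with the match (SE 0.09; limma adjusted p = 1.2e-04) and 0.46 above it with the mismatch (adjusted p = 6.1e-04). Compared with non-treated cells it was 1.69 and 1.63 higher, 3.22-fold and 3.10-fold. Every one of these calls held in all 26 other settings. In the same groups FKBP5 changed by -2.27 with the match and by -0.84 with the mismatch polyamide. TSC22D3, another standard target of the receptor, changed by -0.70 and -0.39 and with the match polyamide was still 2.30 log2 units above non-treated cells.

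CRY1 was the other repressor that rose, with 668, 686 and 617 on the match arrays and 530, 661 and 672 on the mismatch arrays. All 6 values lay above all 6 of the non-treated and dexamethasone arrays, which reached 492 at most. Against dexamethasone the rise was 0.72 with the match (SE 0.09; limma adjusted p = 3.6e-06) and 0.63 with the mismatch (adjusted p = 3.4e-05), and both held in all 26 other settings. Against non-treated cells it was 0.51 (adjusted p = 2.3e-04) and 0.42 (adjusted p = 0.00212), the latter lost with spike-in scaling (0.110).

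PER3 and CRY2, the paralogs of those repressors, were read at low signals. PER3 gave 45.1, 34.7 and 47.8 with the match polyamide and 28.2, 25.1 and 27.1 with dexamethasone alone, so the match arrays were all higher. The difference of 0.45 had an interval of 0.07 to 0.82 and did not pass (limma adjusted p = 0.0662), though it did in 3 of 26 other settings, with spike-in scaling (0.0221), a stricter filter (0.0472) and without match replicate 2 (0.0453). In the fit used here no PER3 probe set was called in any comparison. The other tested one, 1555131_a_at, read lower on all 3 dexamethasone arrays than on the non-treated ones, at -0.37 (limma adjusted p = 0.291). A further PER2 probe set, at signals of 0.719 to 17.5, and 2 of PER3, at 0.168 to 12.4, were under the filter. CRY2 ranged from 3.35 to 44.6 over the 15 arrays. On the mismatch arrays it read 44.6, 43.7 and 37.5, which was 1.01 above non-treated cells (SE 0.32; limma adjusted p = 0.0300), a call lost in 7 of 26 settings, among them without non-treated replicate 1 (0.171) and without any of the mismatch arrays (0.0834, 0.0769 and 0.0526).

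NR1D2 was lowered by both polyamides, opposite to PER2, although dexamethasone had raised both genes. The match arrays read 170, 96.8 and 92.0 and the mismatch arrays 61.6, 71.6 and 63.2, all below the lowest dexamethasone array at 195. The falls were 0.84 with the match (SE 0.19; limma adjusted p = 0.00162) and 1.53 with the mismatch (SE 0.19; adjusted p = 4.7e-06), and both held in all 26 other settings. The other NR1D2 probe set gave -0.92 (adjusted p = 0.0159) and -1.39 (adjusted p = 0.00101), with groups that overlapped for the match and not for the mismatch. Neither polyamide group differed from non-treated cells at the threshold, with intervals of -0.15 to 0.65 for the match and -0.84 to -0.04 for the mismatch (adjusted p = 0.372 and 0.115), and the latter was called without non-treated replicate 2 (0.0362) or without match replicate 1 (0.0481).

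BMAL1 stayed low with both polyamides. It read 67.4, 54.8 and 64.4 with the match and 88.1, 76.3 and 87.0 with the mismatch, where the dexamethasone arrays had read 77.5 to 97.4. Against non-treated cells it was 1.06 lower with the match (SE 0.12; limma adjusted p = 8.9e-07) and 0.71 lower with the mismatch (adjusted p = 2.0e-04), and its other probe set was lower too, by 0.83 and 0.51 (adjusted p = 0.00109 and 0.0458). Against dexamethasone alone the match polyamide changed it by -0.37 (adjusted p = 0.0257), a call lost in 5 of 26 settings, among them without dexamethasone replicate 2 (0.134) and without match replicate 2 (0.111). Its other probe set, 210971_s_at, was at -0.40 there, with overlapping groups (adjusted p = 0.0997). The mismatch polyamide changed it by -0.02, with an interval of -0.27 to 0.24. In both polyamide groups BMAL1 was below its non-treated level, and NR1D2 was not called above its own. Any link between these genes was not tested.

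**Figure D3:**
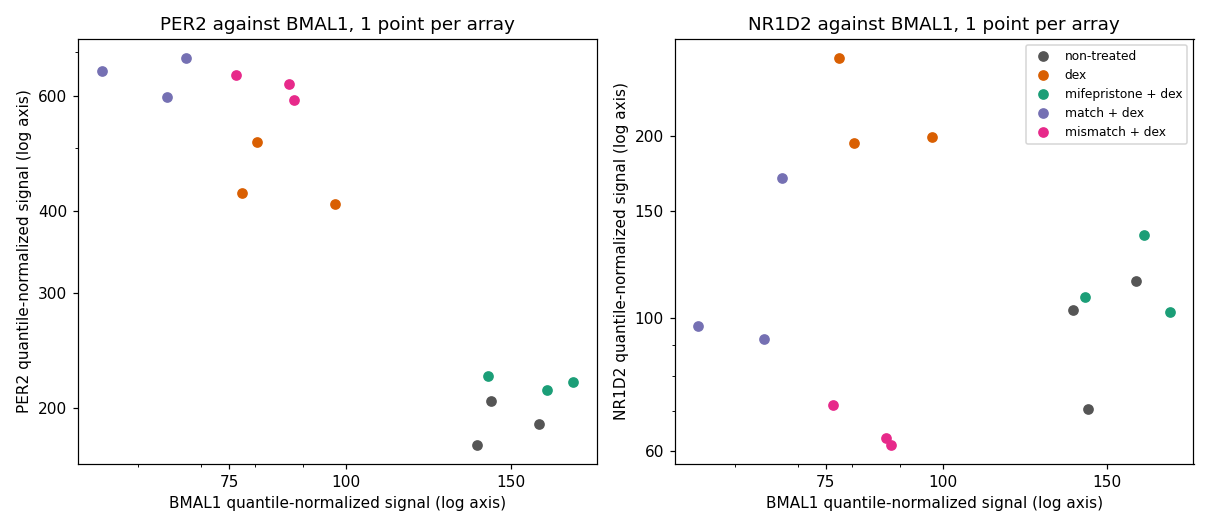
Signals of PER2 (left) and NR1D2 (right) against BMAL1, 1 point per array, all axes logarithmic and coloured by group. The left panel runs from high BMAL1 with low PER2 (non-treated and mifepristone) to low BMAL1 with high PER2 (the other 9 arrays), while on the right the polyamide arrays combine BMAL1 signals of 54.8 to 88.1 with NR1D2 signals of 61.6 to 170.

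CLOCK was not called with dexamethasone or mifepristone in the fit used here. It read 93.1, 91.5 and 106 with the match and 78.5, 108 and 89.4 with the mismatch polyamide. All 6 lay below the dexamethasone arrays at 122 to 124. The change was -0.38 with the mismatch (SE 0.12; limma adjusted p = 0.0330), lost in 9 of 26 settings, among them without any of the dexamethasone arrays and without mismatch replicate 1 (0.164), and -0.31 with the match (adjusted p = 0.0673). Probe set 227531_at of the same gene gave -0.62 with the match (adjusted p = 0.00336) and -0.86 with the mismatch (adjusted p = 2.6e-04), and 225856_at gave -0.34 and -0.37 (adjusted p = 0.0384 and 0.0347). The fourth tested probe set, 217563_at, was called in no comparison. Against dexamethasone the decline thus stood in 3 of 4 probe sets with the mismatch polyamide and in 2 of 4 with the match. Against non-treated cells the match change was -0.31 on the representing probe set and not called (limma adjusted p = 0.0725). There 227531_at gave -0.71 (limma adjusted p = 0.00114) and 225856_at -0.44 (limma adjusted p = 0.00899).

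DBP and TEF, the output factors, were called with the mismatch polyamide and not with the match. The difference between the polyamides passed for TEF, as given below, and not for DBP, where it was -0.32 (limma adjusted p = 0.413). TEF read 81.2, 58.1 and 61.2 there and 38.9, 36.7 and 34.7 with dexamethasone alone, a rise of 0.64 (SE 0.17; limma adjusted p = 0.00843) that was lost without mismatch replicate 1 (0.0582). The 3 other TEF probe sets, at signals of 0.513 to 11.8, were under the filter. DBP read 40.1, 34.1 and 24.4 against 17.0, 6.00 and 23.6, a change of 0.66 (SE 0.23; limma adjusted p = 0.0464). That call was lost in 14 of 26 settings, among them without dexamethasone replicate 2 (0.257), without mismatch replicate 1 (0.165) and without mismatch replicate 2 (0.113), and the other DBP probe set, 209783_at, stood at -0.10.

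The match and mismatch polyamides, the only pair of related compounds in the series, were compared directly at the same labelled times of 48 and 6 hours, with doses not given. They differed at 3 of 10 clock genes, 2 higher and 1 lower with the match, against 22.9% of all genes (9.41% higher and 13.5% lower). The count fell to 1 without match replicate 1 or without mismatch replicate 1. The median difference of the members was 0.06, beside -0.02 over all genes.

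BHLHE40 showed the firmest difference. It read 868, 840 and 893 with the match and 595, 536 and 581 with the mismatch polyamide, 0.59 apart (SE 0.06; limma adjusted p = 1.5e-06), and its other probe set was 1.01 apart (adjusted p = 1.3e-04). The match arrays lay above those of dexamethasone alone and the mismatch arrays below them: the changes were 0.35 (adjusted p = 1.8e-04) and -0.24 (adjusted p = 0.00695). Against non-treated cells, BHLHE40 was 0.64 lower with the mismatch (adjusted p = 2.1e-07), while for the match the interval was -0.18 to 0.08. Its other probe set, 201169_s_at, changed by -0.65 with the mismatch (limma adjusted p = 0.00494). With the match that probe set was at 0.36, with overlapping groups and an interval of 0.03 to 0.69 (limma adjusted p = 0.0987). Without quantile normalization the fall of 0.64 had a limma adjusted p of 0.0633. On the signals as deposited the differences kept their direction but missed the threshold, at 0.44 between the polyamides (adjusted p = 0.0930), 0.39 for the match (0.0840) and -0.05 for the mismatch (0.896). With median centring both changes against dexamethasone missed it as well, at 0.0548 and 0.385. With spike-in scaling the mismatch change against dexamethasone was -0.14 (limma adjusted p = 0.700).

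NR1D2 was 0.69 higher with the match than with the mismatch polyamide (SE 0.19; limma adjusted p = 0.0147), and the groups did not overlap. Without match replicate 1, the array at 170, the difference was 0.44 with an adjusted p of 0.102, and without mismatch replicate 1 the adjusted p was 0.0516. The other NR1D2 probe set was 0.46 higher with the match, with overlapping groups (limma adjusted p = 0.312). TEF was 0.55 lower with the match (SE 0.17; limma adjusted p = 0.0292), again with no overlap. This call was lost in 7 of 26 settings, among them without match replicate 1 (0.0874), without match replicate 3 (0.141) and without mismatch replicate 1 (0.146). BMAL1 was lower on all 3 match arrays, at -0.35 with an interval of -0.61 to -0.10, and missed the threshold (limma adjusted p = 0.0536), which it passed in 4 of 26 other settings, among them without dexamethasone replicate 2 (0.0496).

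For PER2 the polyamides were 0.05 apart, with a 95% interval of -0.13 to 0.24 (limma adjusted p = 0.762). For CRY1 they were 0.09 apart, with an interval of -0.11 to 0.28, and for CLOCK 0.07 apart, from -0.19 to 0.33. The intervals of these genes reached 0.33 at most, whereas for CRY2, DBP and PER3 the intervals were wider, reaching -1.40, -0.81 and 0.53. Without match replicate 3, CRY2 was called, at -1.09, with the match (limma adjusted p = 0.0245).

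**Figure D4:**
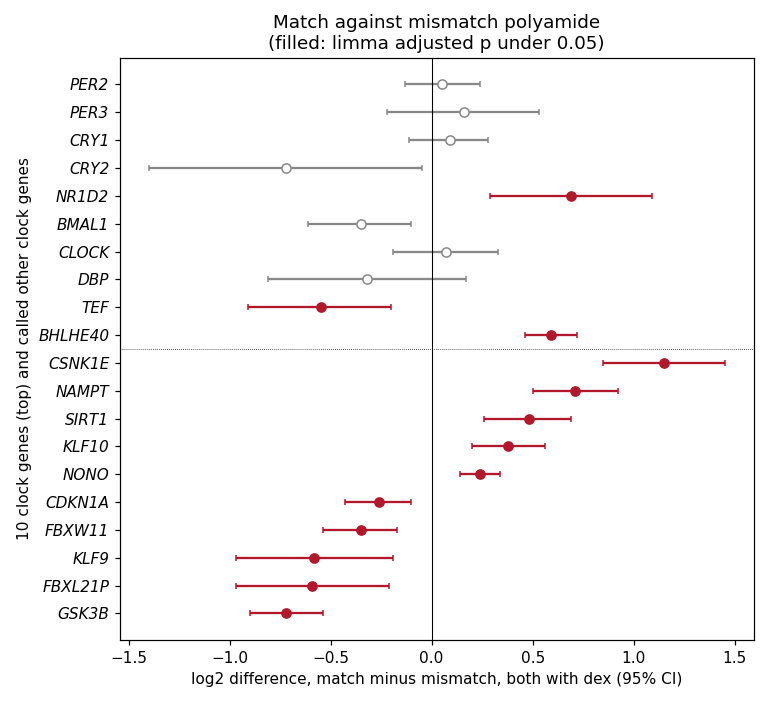
Log2 difference, match minus mismatch polyamide (horizontal axis, points, with 95% intervals), for the 10 clock genes above the dotted line and the 10 called genes of the wider clock list below it, filled where the limma adjusted p is under 0.05. PER2, CRY1 and CLOCK sit near 0, BHLHE40 and NR1D2 lie to the right, and CSNK1E at 1.15 and GSK3B at -0.72 mark the ends.

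Neighbouring groups in the order of their means were compared by the same fit, with the polyamides against mifepristone added after the data were seen (39.0% of all genes differed there with the match and 29.5% with the mismatch). PER2 ran from non-treated and mifepristone, which did not differ, through dexamethasone, to mismatch and match, which did not differ either. CRY1 had dexamethasone, mifepristone and non-treated together at the bottom and both polyamides together at the top. BMAL1 had match, mismatch and dexamethasone at the bottom, no neighbours among them differing, and non-treated and mifepristone at the top. In NR1D2 dexamethasone alone stood apart, above the other 4 groups, in which no neighbours differed. Its match and mismatch groups, which were not neighbours, did differ, by 0.69 (limma adjusted p = 0.0147). The difference of NR1D2 between dexamethasone and mifepristone was lost in 7 of 26 other settings. BHLHE40 rose from mismatch to dexamethasone to mifepristone, with each step called in this fit but lost in 3 of 26 other settings. On the probe set that represents the gene, its mifepristone, match and non-treated groups did not differ. For PER3, CRY2, CLOCK and DBP no neighbouring groups differed at the threshold, and for TEF only the step from match to mismatch did.

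Of 42 further genes of clock function, 36 had a tested probe set of their own. PER1 and NR1D1, close relatives of members, appear on the array only in probe sets that the annotation pairs with another gene as well (4 and 3 probe sets), and are not given. With dexamethasone, 5 of the 36 rose and 2 fell, against 6.79% of all genes changed. The risers were CIART (0.90, limma adjusted p = 0.00593), which encodes a repressor of BMAL1 and CLOCK, the kinase gene CSNK1D (0.49, 0.0140), and the outputs GADD45A (1.58), KLF9 (1.25) and CDKN1A (0.59). KLF9 went from a mean signal of 1.93 to 26.5 and CIART from 5.44 to 24.0, with mifepristone means of 6.59 and 8.13. Their low means lie under the filter level, a signal of 12.01, so both genes passed through the groups where they were high and their place in these counts supports nothing. NPAS2, which encodes a stand-in for CLOCK, fell by 0.48 (0.0229) and the deacetylase gene SIRT1 by 0.47 (0.00772). With mifepristone added, 0 rose and 5 fell: GADD45A (-1.49), KLF9 (-0.92), CIART (-0.71), CDKN1A (-0.54) and the kinase gene CSNK1A1 (-0.28), against 5.29% of all genes changed, while 9 had an unadjusted p under 0.05 in either direction. Against non-treated cells 0 of the 36 were called with mifepristone, and 4 had an unadjusted p under 0.05.

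With the match polyamide 9 of the 36 rose and 4 fell against dexamethasone, and with the mismatch 6 rose and 9 fell. All genes changed at 38.9% and 29.6% in these comparisons, so the match count was near the background. The 4 that fell with the match were GSK3B (-1.88, limma adjusted p = 1.3e-12), KDM5A (-0.91), BTRC (-0.72) and FBXW11 (-0.67). GSK3B encodes a kinase of clock proteins, KDM5A a co-activator of BMAL1 and CLOCK, and BTRC and FBXW11 the F-box proteins that mark PER for degradation. With the mismatch the changes of these genes were -1.16, -0.67, -0.54 and -0.31. SIRT1 rose by 0.93 and 0.45, and NAMPT, whose enzyme acts in the synthesis of the NAD that SIRT1 uses, fell by 0.81 with the mismatch (adjusted p = 5.1e-06). The polyamides differed from each other at 10 of the 36, 5 in each direction, beside 22.9% of all genes. CSNK1E, a PER kinase gene, was at mean signals of 187 with the match and 75.7 with the mismatch, 1.15 apart (adjusted p = 1.2e-05), GSK3B 0.72 lower with the match (adjusted p = 6.9e-06) and NAMPT 0.71 higher (adjusted p = 4.9e-05).

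The genes whose log2 signals followed a member most closely over the 15 arrays were found by Pearson r, among 16358 genes, and share the grouping of the arrays. CAVIN2, GADD45A and CHST7 followed PER2 at 0.98 each. LINC02381, ISOC1 and METTL5 followed CRY1 at 0.97, 0.96 and 0.96, and CD58, DENND5B and NFAT5 followed BMAL1 at 0.96, 0.95 and 0.95. For BHLHE40 they were FAM107B, NET1 and MARCHF4 at 0.97, 0.95 and 0.93. NR1D2 had no gene above 0.89, the value for ZFP36L2, and PER3, CRY2 and DBP, with low signals, none above 0.87. Among the members themselves the highest value was 0.73, between PER3 and CRY1, and the lowest -0.93, between PER2 and BMAL1.

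The members also differ in the length of genome they span in the annotation. BHLHE40 spans 5.89 kb and DBP 7.35 kb, while CRY1, BMAL1 and CLOCK span 102, 111 and 119 kb, at the 82.9, 84.5 and 85.8 percentiles of the tested genes. With the polyamides the long genes of the whole table read lower: genes of 87.6 to 155 kb had a median change of -0.18 with the match and -0.10 with the mismatch, and genes of more than 155 kb -0.48 and -0.31. CRY1, at 0.72 and 0.63, went against that median, CLOCK, at -0.31 and -0.38, went with it, and BMAL1, at -0.37 and -0.02, lay below it with the match and above it with the mismatch. The part of gene length in the members' changes was not tested.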

How the data were processed

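RNA of A549 cells was read on 15 arrays, 3 per group. The deposited intensity signals, on a linear scale with 1 value per probe set and array, came from MAS5, run by the authors according to the submitters' processing notes (per the labels, with neither version nor scaling target). Probe sets were named from the platform annotation: 41097 carried 1 symbol, 1801 several and 11777 none.

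Signals were quantile normalized, 16 was added and log2 taken. Probe sets were kept if on at least 3 of 15 arrays they exceeded that array's 40th percentile (39744, 72.7%; 62 control probe sets left out). All groups were fitted together with limma 3.58.1 in R 4.3.3, with a variance trend (10 residual and 9.36 prior degrees of freedom), and p-values were adjusted by Benjamini-Hochberg over the 39744. Every adjusted p here is from that fit or a stated alternative to it. A change on this scale understates that of low signals, and the number of arrays limits the precision. On simulated data for dexamethasone against non-treated cells with 39744 probe sets, the fit recovered 67.2% of 1.5-fold, 92.5% of 2-fold and 100% of 4-fold changes, with 11 false calls. Those changes were put only into probe sets of higher mean signal, and directly on the log2 scale after 16 was added. The rates therefore do not cover lower signals, such as those of PER3, CRY2, DBP, TEF and BMAL1.

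The members, the wider clock list and the markers were chosen with earlier results of these data known. The text names every member, of the wider list at most 8 called genes per comparison by adjusted p, FKBP5 and TSC22D3. It also names up to 3 genes closest by Pearson r, for some of the members. Promoter sequences and gene spans are from RefSeq, GRCh38.p14. Replicate numbers did not pair the arrays: deviations from group means correlated at -0.08 to 0.12 for same-numbered arrays (30 pairs) and at -0.13 to 0.13 for others (60 pairs). Alternatives changed the scaling, the pseudocount (1 or 64), the filter (none, or the 60th percentile), the variance model, the arrays fitted, the block and the probe set.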

Additional observations from a re-analysis of the deposited data

How the results depend on the processing

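Over 80 gene-by-comparison changes and 26 alternatives, 1976 stayed on their side of the threshold (43 of them, never called, had the other sign), 79 calls were lost, 25 were gained and no call changed sign. By probe set, the only call that changed sign was DBP with the mismatch polyamide against dexamethasone, to -0.10 for 209783_at. Some changes called on neither probe set also differed in sign, such as DBP between the polyamides (-0.32 and 0.45). With the signals as deposited, 2 members were called for dexamethasone against non-treated (4 in the text), 3 for the match polyamide against dexamethasone (5), 1 between the polyamides (3) and 3 for mifepristone against non-treated (0). With spike-in scaling, 1 was called for mifepristone against non-treated, and 4 for the mismatch polyamide both against dexamethasone and against non-treated (7 each). With no variance trend, 2 were called for mifepristone against dexamethasone (4). In that comparison the signals as deposited lost NR1D2 and gained CRY1 (0.60, limma adjusted p = 0.0228) and DBP (0.81, 0.0171). Spike-in scaling lost NR1D2 too and gained CRY1 (0.67, 0.00903), DBP (0.85, 0.0103) and CLOCK (0.55, 0.0316). The median of all genes was 0.38 and 0.44 higher under those scalings. Leaving out 1 array at a time, the counts ran from 2 to 4 for mifepristone against dexamethasone, from 4 to 7 for the mismatch polyamide against dexamethasone, from 1 to 4 between the polyamides and from 4 to 8 for the mismatch polyamide against non-treated. For dexamethasone against non-treated the count was 4 each time, for the match polyamide against dexamethasone 4 or 5. With a replicate block the counts were 4, 4, 5, 7 and 3 in the order of the text's comparisons, the same as without it. The cause of these losses was not tested. With mifepristone against dexamethasone 1411 probe sets were called (639 higher), 8142 as deposited (7910 higher) and 12962 with spike-in scaling (12737 higher). Between the polyamides 6697 were called (2969 higher), 3094 as deposited (556 higher) and 2831 with spike-in scaling (2067 higher). For dexamethasone against non-treated these counts were 1927 (1017 higher), 814 (564 higher) and 772 (456 higher). As deposited, the match polyamide had 7978 calls against dexamethasone (12252 in the text's fit), and with spike-in scaling the mismatch had 4766 (9109). Against non-treated cells, mifepristone had 66 (48 higher), 5792 as deposited (5780 higher) and 2586 with spike-in scaling (2580 higher), the match polyamide 11864 and 7562 as deposited, and the mismatch 8341 and 4042 with spike-in scaling. CRY2, DBP, PER3 and the filtered probe sets lie low on the arrays, which limits what can be said of them.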
